A study of Mus musculus with 112 samples.

Results

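The genes described here mark pigment cells, and they were followed through mouse skin carcinogenesis. They were Dct, Tyrp1, Tyr, Pmel, Mlana, Mitf, Sox10 and Slc45a2. A gene was measured where the platform annotation gave a probe set that symbol alone, and the probe set with the highest mean stood for the gene. By that rule all 8 of the 8 genes were measured, among 18772 genes in all. Mitf had a second probe set, with a mean log2 intensity of 2.83 over all arrays, which was not used.

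The data were 112 Affymetrix expression arrays from 15 male mice, the offspring of Spretus x FVB F1 animals crossed back to FVB. There were 9 wild-type (WT) mice and 6 HrasKO mice, which are labelled as knockouts of the Hras gene. All mice had received DMBA, a mutagen that initiates skin tumours, once at 8 weeks and then TPA, a tumour promoter, repeatedly, so the skin samples also came from treated animals. The labels give neither coat colour nor the phase of hair growth, and FVB is an albino strain that carries a variant of Tyr. No probe set carried the symbol Hras alone, so the knockout was not checked by its own transcript.

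Skin was represented by 15 arrays from 15 mice and papilloma, the benign tumour, by 27 arrays from 13 mice, 9 WT and 4 HrasKO. Squamous cell carcinoma (SCC) had 10 arrays from 8 mice, all WT. Spindle carcinoma, the dedifferentiated form, had 12 arrays from 10 mice, 6 WT and 4 HrasKO. There were 24 SCC metastases from 11 mice and 20 spindle metastases from 7 mice. Arrays of a mouse and tissue were averaged, the mouse was the replicate, and every level below is a log2 intensity. The array medians lay between 5.89 and 6.36. The files carry no detection calls, so a low intensity cannot be told apart from background.

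Melanocytes are neural crest cells that make melanin inside melanosomes and hand it to keratinocytes. In the trunk skin of the mouse they sit mainly in hair follicles, where pigment is made while the hair grows. Sox10 is a transcription factor of neural crest cells that is also used by Schwann cells, and it acts upstream of Mitf. Mitf encodes the transcription factor that turns on the pigment genes, and other forms of it are used by macrophages, osteoclasts and mast cells. Tyr encodes tyrosinase, the enzyme that starts melanin synthesis, and Tyrp1 and Dct encode related enzymes of later steps. Pmel encodes the protein that forms the fibrils of the melanosome, Mlana a melanosomal membrane protein, and Slc45a2 a transporter that melanosomes need for pigment production. In whole tissue, fewer cells of a type and less RNA per cell cannot be told apart.

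MITF is known to bind the M-box, TCATGTG, in promoters of the pigment enzymes. The promoters of the 3 enzymes are shown because these genes moved together below. They are taken from RefSeq on GRCm38.p6, from 250 bases before to 50 bases after the start site, 5′ to 3′ on the strand of the gene, with TCATGTG or its reverse complement in capitals. Dct lies at chr14:118052197-118052496 on the minus strand, Tyrp1 at chr4:80833963-80834262 on the plus strand and Tyr at chr7:87493463-87493762 on the minus strand.
Dct: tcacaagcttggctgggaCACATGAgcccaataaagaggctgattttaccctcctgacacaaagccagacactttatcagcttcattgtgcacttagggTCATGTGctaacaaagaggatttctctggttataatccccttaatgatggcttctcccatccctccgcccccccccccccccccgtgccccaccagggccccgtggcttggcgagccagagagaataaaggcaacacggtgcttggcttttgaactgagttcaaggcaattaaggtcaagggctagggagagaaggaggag
Tyrp1: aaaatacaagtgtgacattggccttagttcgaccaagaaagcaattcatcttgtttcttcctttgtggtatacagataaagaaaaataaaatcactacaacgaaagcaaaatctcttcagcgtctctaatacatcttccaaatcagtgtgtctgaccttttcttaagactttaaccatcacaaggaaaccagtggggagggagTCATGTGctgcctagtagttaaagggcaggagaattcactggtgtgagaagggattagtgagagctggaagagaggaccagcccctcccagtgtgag
Tyr: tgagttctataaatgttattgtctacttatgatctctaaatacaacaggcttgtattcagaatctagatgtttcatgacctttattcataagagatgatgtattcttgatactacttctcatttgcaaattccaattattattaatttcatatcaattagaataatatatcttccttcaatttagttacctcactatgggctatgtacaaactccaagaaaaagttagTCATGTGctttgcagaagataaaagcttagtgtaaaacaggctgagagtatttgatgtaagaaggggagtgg
The Dct window holds the motif at both orientations, beginning 151 bases before the start on its own strand and 232 bases before it on the opposite strand. The Tyrp1 window holds it once, 47 bases before the start, and the Tyr window once, 22 bases before the start. The table used held 3 promoters of Mitf, and none of them contained TCATGTG. Of the 32851 promoters searched on both strands, 3.77% contained TCATGTG and 14.2% contained the shorter CATGTG, which lies within it. CACGTG, present in 7.15% of promoters, and AACAAT, a core of Sox factor sites present in 10.7%, were not found in any of these 6 windows. A match is a stretch of letters and not a measured binding site.

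Dct spread from low to high among skins, was high in most papillomas and was low in most malignant samples. In skin, Dct had a lowest mouse value of 4.32, a median of 6.66 and a highest of 9.18 (mean 6.72 ± 1.76 SD, n = 15). In papilloma, the Dct values were 3.72, 7.29 and 8.21 (6.62 ± 1.57, n = 13). In SCC carcinoma they were 3.67, 3.83 and 6.85 (4.40 ± 1.12, n = 8), and in spindle carcinoma 3.65, 4.04 and 6.00 (4.42 ± 0.80, n = 10). The ranges overlapped, because some skins and papillomas were as low as the carcinomas.

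Metastases were uniformly low for Dct, with mouse values from 3.49 to 4.59 in SCC metastasis and from 3.55 to 4.44 in spindle metastasis. The highest single metastasis array stood at 4.59. Above that level lay 12 of 15 skin arrays, 22 of 27 papilloma arrays, 4 of 10 SCC carcinoma arrays and 4 of 12 spindle carcinoma arrays. Tyrp1 had the same pattern, with 13 of 15 skins, 23 of 27 papillomas, 5 of 10 SCC carcinomas and 4 of 12 spindle carcinomas above the highest metastasis, which was at 4.61.

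Ordered by mean, Dct ran from skin (6.72) over papilloma (6.62), spindle carcinoma (4.42), SCC carcinoma (4.40) and spindle metastasis (3.92) to SCC metastasis (3.90). Only the step from papilloma to spindle carcinoma was larger than the SDs on either side, and the other neighbours in this order differed by less than the larger of their SDs. Mitf had another order. Its mean was 9.29 ± 0.41 (SD, n = 15) in skin, 8.30 ± 0.50 (n = 7) in spindle metastasis, 7.94 ± 0.78 (n = 10) in spindle carcinoma, 7.68 ± 0.60 (n = 11) in SCC metastasis, 7.13 ± 0.63 (n = 13) in papilloma and 6.76 ± 0.86 (n = 8) in SCC carcinoma. From spindle metastasis down to SCC carcinoma, each pair of neighbours in the Mitf order differed by less than the larger of their SDs.

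**Figure D1:**
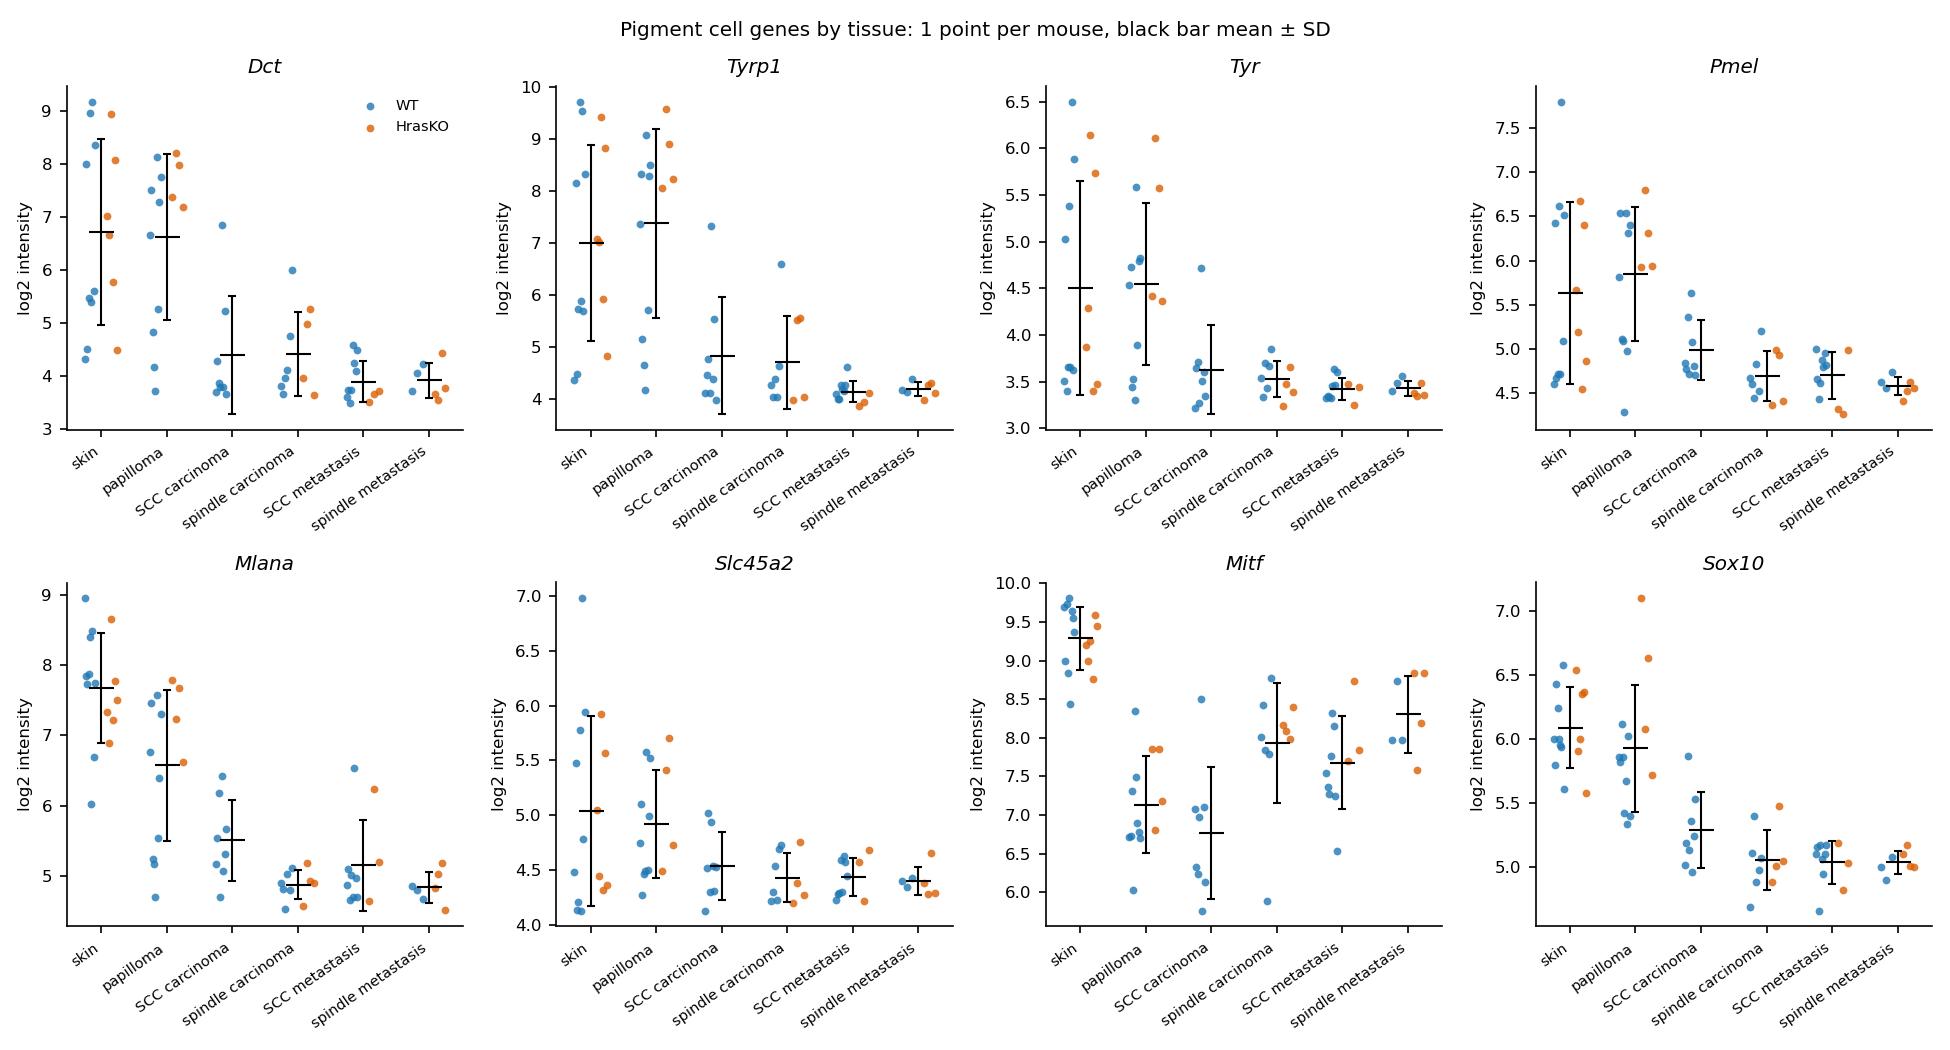
Log2 intensity (vertical axis) of the 8 genes in skin, papilloma, SCC and spindle carcinoma and SCC and spindle metastasis, 1 point per mouse, WT in blue and HrasKO in orange, with black bars for the mean ± SD over all mice. Dct, Tyrp1, Tyr and Pmel spread widely in skin and papilloma and lie low in carcinoma and metastasis, whereas Mitf is highest in skin (mean 9.29) and lowest in SCC carcinoma (6.76).

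Several libraries stood apart from their labels, and some comparisons that rest on them are given with and without them. By correlation of their deviations from the average array, 7 of the 27 papilloma arrays lay nearer another tissue than papilloma. The 4 arrays from the WT mice 1508, 1815 and 1984 lay nearest the spindle tumours. Their mean over 8 keratinocyte markers (such as Krt5 and Krt14) was 5.30 to 8.75, against 10.56 to 11.18 in the 20 papilloma arrays that lay nearest papilloma. The other 3, from mice 1407, 1706 and 1949, lay nearest skin, with keratinocyte means of 10.67 to 10.95. In spindle carcinoma, the array of mouse 1949 had a keratinocyte mean of 11.12, the highest of 12, and 5 of the 24 SCC metastases, 4 of them HrasKO, lay below the midpoint (8.43) between the medians of SCC and spindle carcinoma.

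Among skins, several pigment genes were high where hair genes were high. The level of 17 measured hair shaft and growing follicle genes (of 20 listed) split the skins into separate clusters. There were 6 skins, 4 WT and 2 HrasKO, with hair means of 4.54 to 4.88. Another 8 skins, 5 WT and 3 HrasKO, had 8.97 to 11.15, and the skin of mouse 1407 lay between them at 7.03. In the 6 skins with low hair genes, Dct ran from 4.49 to 5.77, Tyrp1 from 4.47 to 5.92 and Tyr from 3.40 to 3.66. In the 8 skins with high hair genes, Dct had a lowest value of 4.32, a median of 8.22 and a highest of 9.18, Tyrp1 4.36, 8.58 and 9.72, and Tyr 3.51, 5.56 and 6.50.

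A single skin set the low end of the second cluster. Mouse 1383 had a hair mean of 9.65 with Dct at 4.32, Tyrp1 at 4.36, Tyr at 3.51 and Pmel at 4.60, all as low as in skins with low hair genes. The same skin had the highest Mlana of all skins, 8.95, and a Mitf of 9.70. The other 7 skins of that cluster had Dct between 6.66 and 9.18, without overlap with the 6 skins with low hair genes. Mlana, Mitf and Sox10 did not divide the skins in this way. Mlana ran from 6.03 to 7.87 in the low cluster and from 6.90 to 8.95 in the high one, Mitf from 8.44 to 9.74 and from 8.99 to 9.81, and Sox10 from 5.58 to 6.58 and from 5.61 to 6.37.

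Because the skins were clustered, no correlation over all 15 is given. Within the 8 skins with high hair genes, Dct correlated with the hair mean at Pearson r = 0.66 (two-sided exact permutation p = 0.0541, Benjamini-Hochberg adjusted 0.143) and Spearman rho = 0.93 (exact permutation p = 0.00223, adjusted 0.0357). Without the 2 skins farthest from the cluster median, r was 0.59 over 6 skins. Slc45a2 had r = 0.85 (exact permutation p = 0.00342, adjusted 0.0548) and rho = 0.88 (exact permutation p = 0.00724, adjusted 0.0386), and r = 0.66 without those 2 skins. Over 16 relations, 8 genes in each cluster, none passed the adjusted threshold by Pearson and 4 passed by Spearman, those of Dct, Tyrp1, Pmel and Slc45a2 in the high cluster. In the 6 skins with low hair genes, Tyrp1 had r = 0.99 (exact permutation p = 0.00833, adjusted 0.0667), which dropped to 0.49 over 4 skins without the 2 farthest. Genotype did not separate the clusters, and batch was not tested within them because 13 of the 15 mice belonged to batch 1.

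**Figure D2:**
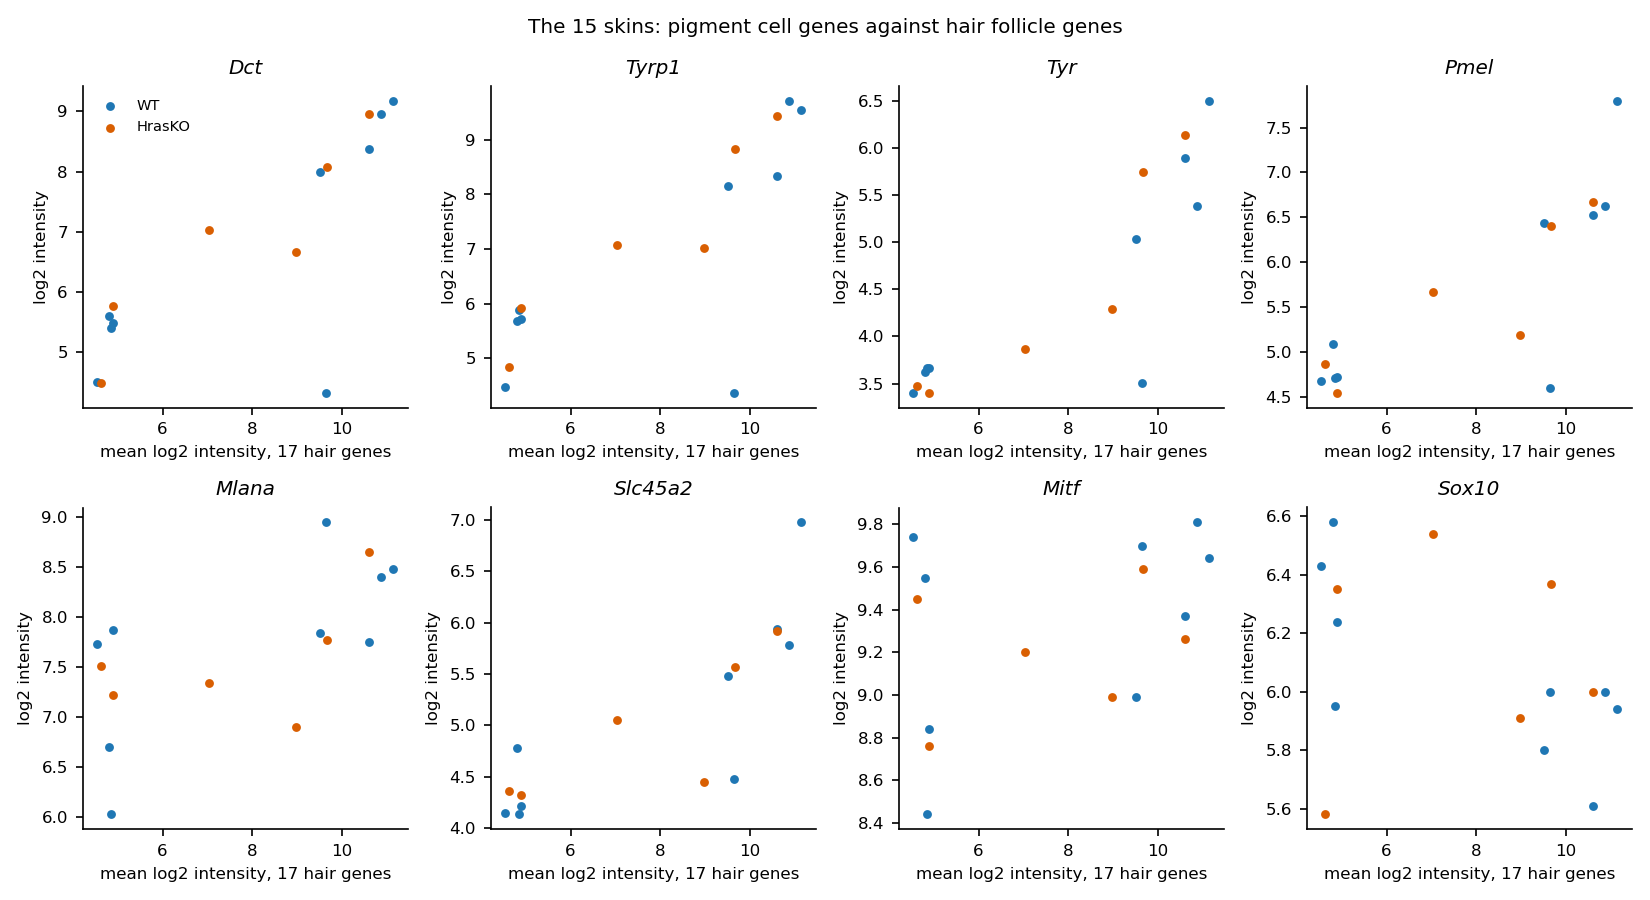
The 15 skins, with the mean log2 intensity of 17 hair follicle genes on the horizontal axis and the log2 intensity of each pigment cell gene on the vertical axis, WT in blue and HrasKO in orange. The skins form a group at hair means of 4.54 to 4.88 and another at 8.97 to 11.15, and Dct, Tyrp1, Tyr and Pmel are higher in the second without overlap except in mouse 1383 (Dct 4.32).

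The comparison of papilloma with skin asked what changes in the benign tumour. It was made within 13 mice with limma, the mouse as a block and p-values adjusted by Benjamini-Hochberg over all 18772 genes, with a threshold of 0.05. Of the 8 genes, 2 fell and none rose, where 18.1% of all genes fell and 24.5% rose (42.6% in either direction). The median log2 difference was -0.05 over the 8 genes and 0.05 over all genes.

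Mitf fell in all 13 mice. Its mouse values ran from 8.44 over a median of 9.37 to 9.81 in skin (15 mice). In papilloma they ran from 6.03 over 6.89 to 8.35, so the mouse values narrowly did not overlap. Single papilloma arrays reached 9.01, inside the range of skin. The log2 difference was -2.20 (SE 0.17, limma adjusted p = 1.02e-06), a 4.60-fold lower level. It lay between -2.31 and -2.14 whichever mouse was left out, and was -1.17 when both Mitf probe sets were averaged, since the other set stayed near 2.83. Hair follicle genes fell beside it in 14 of 17 cases and mast cell markers in 4 of 7 (1 rose). Schwann cell markers fell in 4 of 9 and macrophage and osteoclast markers in 1 of 8 (1 rose). Of all genes, 18.1% fell and 24.5% rose. The mean of the mast cell list ranged from 6.63 to 8.55 in skin arrays and from 5.44 to 8.44 in papilloma arrays, and the macrophage list from 9.03 to 10.87 and from 8.43 to 11.22. Log2 intensities have no zero, so no marker can be called absent, and the part of these cells in the Mitf difference was not tested.

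Mlana also fell, by 1.06 on the log2 scale (SE 0.40, limma adjusted p = 0.0482), and was lower in 10 of 13 mice. This call was marginal: it was lost when any of 10 mice was left out (adjusted p 0.0166 to 0.0971 over the 13), in batch 1 alone (difference -1.21, adjusted p = 0.0605) and after repeated quantile normalization (-1.04, adjusted p = 0.0551).

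None of the 3 pigment enzymes passed the threshold. Dct differed by 0.00 (95% interval -1.33 to 1.34), Tyrp1 by 0.49 (-1.01 to 1.98) and Tyr by 0.08 (-0.68 to 0.84), with limma adjusted p-values of 0.998, 0.607 and 0.877. The mean hid large and opposite shifts. The papillomas of mouse 1949 had 2.75 more Dct than its skin, those of mouse 1706 had 2.70 more and those of mouse 1383 2.34 more. The papillomas of mouse 1815 had 5.24 less Dct than its skin and those of mouse 1984 had 3.92 less. Both papilloma arrays of mouse 1815 and 1 of the 3 of mouse 1984 lay nearest the spindle tumours, and the skins of both mice were among those with high hair genes (Dct 8.96 and 9.18). The 3 mice with the largest gains started from skins at 4.32 to 5.40.

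Tyrp1 moved with Dct in each of these mice, by 3.19, 3.40 and 3.0 in mice 1949, 1706 and 1383 and by -5.56 and -3.84 in mice 1815 and 1984. Pmel differed by 0.21 (SE 0.36, limma adjusted p = 0.661), Slc45a2 by -0.11 (SE 0.25, adjusted p = 0.768) and Sox10 by -0.15 (SE 0.10, adjusted p = 0.255).

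The enzymes lay higher, still short of the threshold, without the 7 papilloma arrays that stood apart, which left 12 mice. Tyrp1 then differed by 1.15 (SE 0.51, limma adjusted p = 0.0739), Dct by 0.49 (SE 0.46, adjusted p = 0.401) and Tyr by 0.33 (SE 0.34, adjusted p = 0.445). Pmel differed by 0.51 (SE 0.32, adjusted p = 0.198). Mitf fell by 2.62 (adjusted p = 1.55e-07) and Mlana by 0.92 (adjusted p = 0.036) in that setting, where 5399 of all genes rose and 4362 fell.

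**Figure D3:**
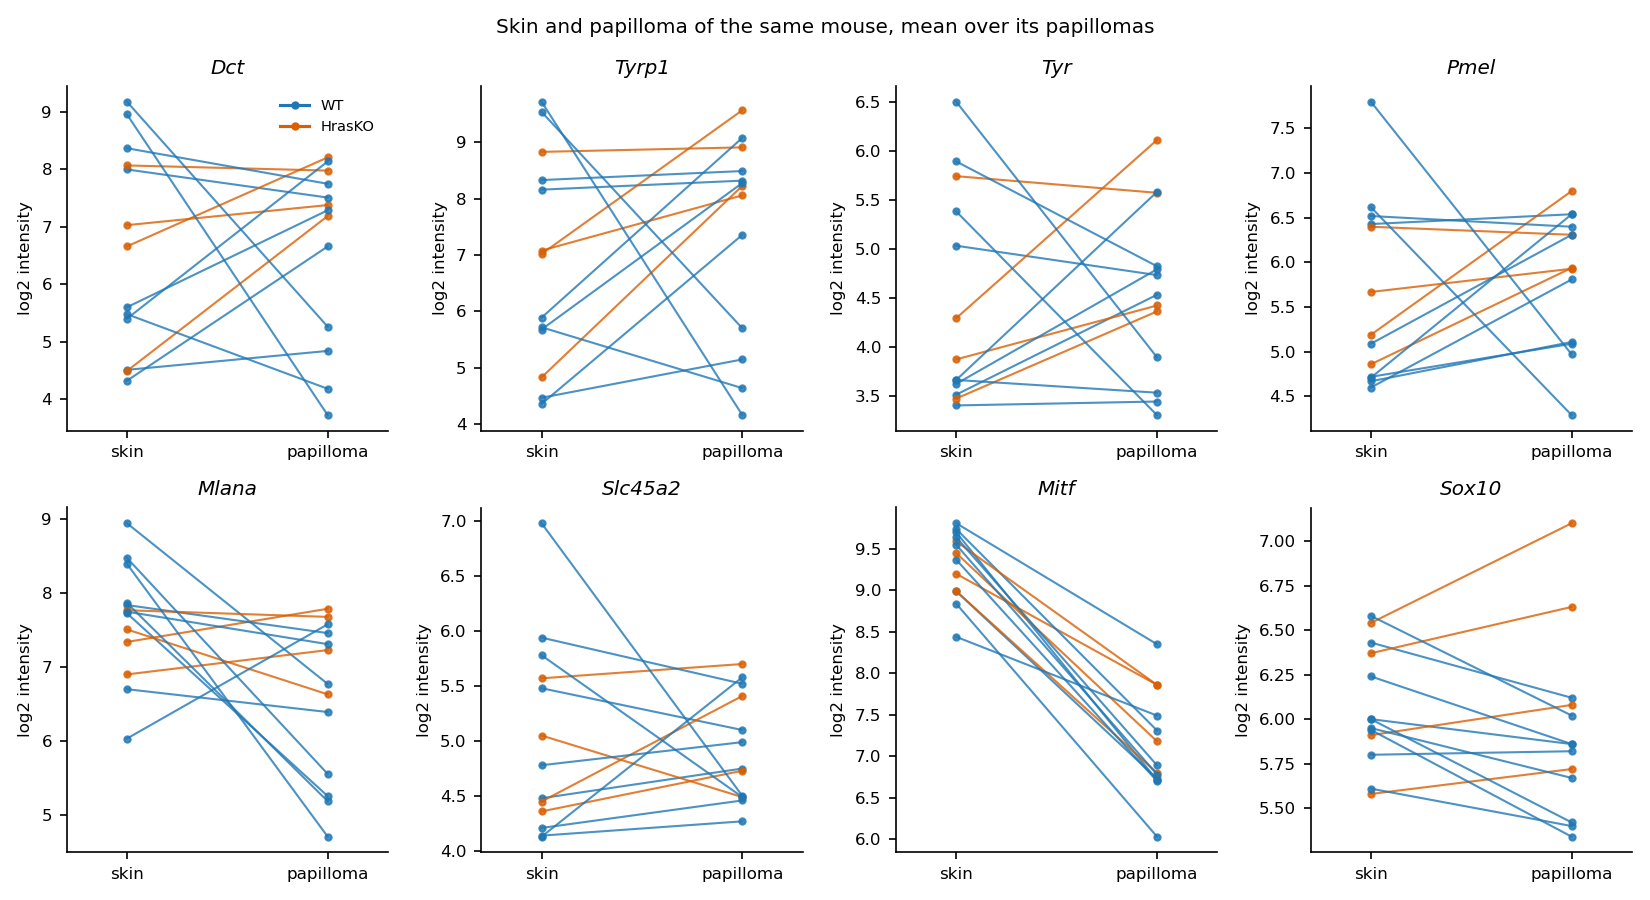
Log2 intensity of each gene in skin and papilloma of the same mouse, 1 line per mouse (n = 13), WT in blue and HrasKO in orange, with the papilloma value averaged over the papillomas of that mouse. Mitf drops in all 13 mice, Mlana in 10 of 13, and Dct, Tyrp1, Tyr, Pmel and Slc45a2 cross in both directions.

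Other melanosome genes did not move as one between skin and papilloma. Of 13, 3 rose and 2 fell, near the shares over all genes (24.5% rose and 18.1% fell). Tpcn2, which encodes an ion channel, rose by 1.01 (limma adjusted p = 3e-05), Rab32, a small GTPase of melanosome transport, by 0.69 (adjusted p = 0.00169) and Cd63 by 0.45 (adjusted p = 0.00296). Gpnmb, a melanosomal glycoprotein that macrophages also make, fell by 1.30 (adjusted p = 0.000375) and Rab27a, which tethers melanosomes for transport, fell by 0.62 (adjusted p = 0.0243).

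Of 10 melanocyte receptors and lineage regulators, 3 fell and 1 rose, where 18.1% of all genes fell and 24.5% rose. Kit, the receptor for stem cell factor that mast cells also carry, fell by 1.13 (limma adjusted p = 7.67e-05), Lef1, a Wnt effector also used by hair follicles, by 1.26 (adjusted p = 0.0168) and Zeb2 by 1.01 (adjusted p = 0.00803). Met, the receptor for hepatocyte growth factor, rose by 0.78 (adjusted p = 0.000433). Of 6 measured ligands that act on melanocytes, Edn1 (endothelin 1) fell by 1.33 (adjusted p = 9.98e-05) and Fgf2 by 0.91 (adjusted p = 0.000455), and none rose.

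Papillomas of a mouse differed among themselves. In the 11 mice with several papilloma arrays, the range of Dct within a mouse had a median of 0.85 and reached 3.08 in mouse 1984, and the range of Mitf had a median of 0.90 and reached 3.03 in the same mouse. The 4 arrays nearest the spindle tumours had Dct of 3.62 to 4.50, Tyrp1 of 3.82 to 4.41 and Mlana of 4.53 to 5.24. In the 20 arrays nearest papilloma, Dct ran from 4.18 over a median of 7.20 to 9.56, Tyrp1 from 4.64 over 8.24 to 10.5 and Mlana from 5.18 over 6.74 to 8.75. The low end of these 20 overlapped with the 4 for Dct and Mlana but not for Tyrp1.

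Mitf stood the other way round in the 4 arrays nearest the spindle tumours. Mitf was 8.20 to 8.75 in these 4 and 8.03 to 9.01 in the 3 nearest skin. In the 20 others it ran from 5.72 to 8.31, with a median of 6.71. The 3 nearest skin had Dct of 7.16 to 7.91 and Mlana of 7.18 to 8.99 beside their high Mitf. The mean of 8 macrophage and osteoclast markers was 10.78 to 11.22 in the first 4, 10.49 to 10.85 in the next 3 and 8.43 to 10.69 in the 20 others. Mast cell markers had means of 7.21 to 8.29, 7.78 to 8.44 and 5.44 to 8.30 in these sets. Their part in the Mitf levels was not tested.

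**Figure D4:**
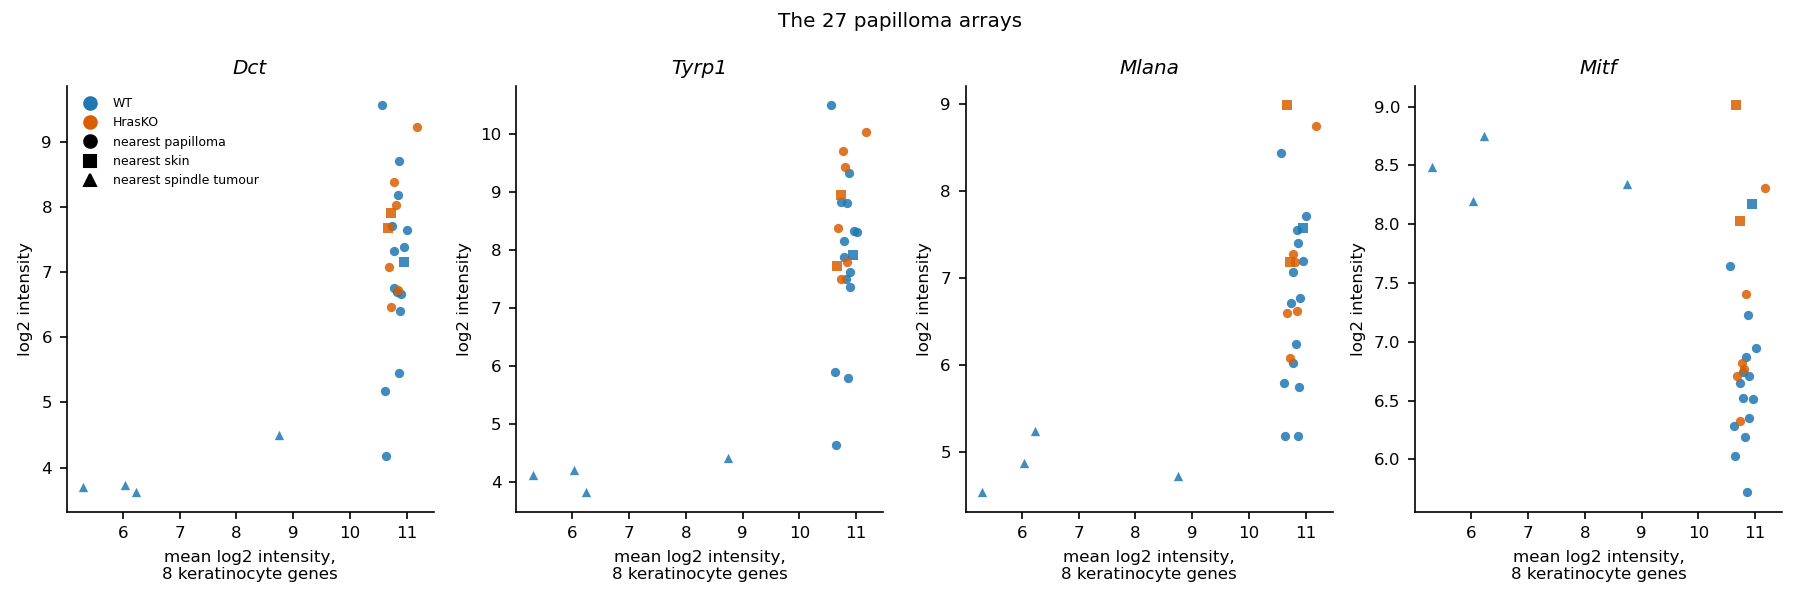
The 27 papilloma arrays, with the mean log2 intensity of 8 keratinocyte markers on the horizontal axis and the log2 intensity of Dct, Tyrp1, Mlana and Mitf on the vertical axes, WT in blue and HrasKO in orange, and the marker shape giving the tissue an array lay nearest. The 4 arrays nearest spindle tumours (triangles) have keratinocyte means of 5.30 to 8.75, low Dct, Tyrp1 and Mlana, and Mitf of 8.20 to 8.75.

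Genotype was compared in papillomas, 4 HrasKO against 9 WT mice, with batch as a covariate. By limma, none of the 8 genes passed the adjusted threshold and 1 (Sox10) had an unadjusted p under 0.05, where 0.0053% of all genes passed in either direction. At an unadjusted p under 0.05, 294 of all genes were higher and 665 lower in HrasKO papillomas. The 4 HrasKO mice had papilloma Dct of 7.19, 7.38, 7.98 and 8.21, whereas the WT mice ran from 3.72 over a median of 6.66 to 8.14. Tyrp1 was 8.06, 8.23, 8.91 and 9.57 in HrasKO mice and ran from 4.16 over 7.36 to 9.08 in WT mice. The groups overlapped for both genes. The HrasKO mouse 1509 (Dct 8.21, Tyrp1 9.57) lay above the highest WT mouse, 1949 (8.14 and 9.08), and the other 3 HrasKO mice lay within the WT range.

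The differences, HrasKO minus WT, were 1.40 for Dct (95% interval -0.39 to 3.19), 1.75 for Tyrp1 (-0.30 to 3.80), 0.75 for Tyr (-0.25 to 1.75), 0.49 for Pmel (-0.42 to 1.40), 0.96 for Mlana (-0.21 to 2.13), 0.41 for Mitf (-0.39 to 1.21) and 0.16 for Slc45a2 (-0.44 to 0.76). The 4 arrays nearest spindle tumours were all from WT mice. Without the 7 arrays that stood apart, which removes mouse 1815 altogether, the difference was 0.66 (SE 0.72) for Dct, 1.09 (SE 0.81) for Tyrp1 and 0.24 (SE 0.42) for Mlana.

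Sox10 was 5.72, 6.08, 6.63 and 7.10 in the HrasKO papillomas and ran from 5.34 over 5.82 to 6.12 in WT papillomas. The difference was 0.63 (95% interval 0.12 to 1.14, limma adjusted p = 0.814), and 0.42 (SE 0.34) without the arrays that stood apart. From skin to papilloma, Sox10 was higher in 4 of 4 HrasKO mice, by 0.14 to 0.56, and lower in 8 of 9 WT mice, with the remaining mouse at 0.02. The difference between genotypes in that change was 0.59 (95% interval 0.29 to 0.89), with a limma adjusted p of 0.585, and it was 0.39 (SE 0.22) without the arrays that stood apart. By limma no gene of the 18772 passed for the change, with 776 higher and 643 lower at an unadjusted p under 0.05. In skin, 6 HrasKO against 9 WT mice, none of the 8 genes passed by limma and none had an unadjusted p under 0.05. Of all genes, 0.0053% passed in skin, and 831 were higher and 1231 lower at an unadjusted p under 0.05. The largest skin difference was 0.22 for Tyrp1 (95% interval -1.80 to 2.23).

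From papilloma to SCC carcinoma, within 8 WT mice, the pigment genes were lower but none of the 8 passed the adjusted threshold, in a comparison where limma called 0.202% of all genes. Of the 8, 6 had an unadjusted p under 0.05, namely Dct, Tyrp1, Tyr, Pmel, Mlana and Sox10, all lower. At that level 627 of all genes were higher and 1141 lower. Dct was lower in 8 of 8 mice, with a difference of -2.06 (SE 0.39, limma adjusted p = 0.0811), and Tyrp1 in 8 of 8, with -2.30 (SE 0.47, adjusted p = 0.104). Without the papilloma arrays that stood apart, limma called 5 of the 8 genes lower: Dct (-2.26, adjusted p = 0.0146), Tyrp1 (-2.58, adjusted p = 0.0146), Pmel (-1.03, adjusted p = 0.0406), Sox10 (-0.60, adjusted p = 0.0412) and Tyr (-0.87, adjusted p = 0.0477). In that setting 327 genes were lower and 97 higher of all genes, against 36 and 2 with all arrays. Mitf differed by -0.06 with all arrays and by 0.22 without those arrays, with neither difference past the threshold.

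A single SCC carcinoma had pigment genes at the level of papilloma. Mouse 1949 had 2 SCC carcinoma arrays, and 1 of them had Dct at 8.80, Tyrp1 at 9.40, Tyr at 5.85, Pmel at 6.76 and Mlana at 7.29, with a keratinocyte mean of 10.42. Its hair mean was 5.29, and the other SCC carcinoma of that mouse had Dct at 4.91 and Tyrp1 at 5.26. In the remaining 8 SCC carcinoma arrays, Dct ran from 3.67 to 5.45.

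Spindle carcinoma was compared with papilloma within 9 mice, and 6 of the 8 genes fell and none rose, where 11.2% of all genes fell and 12.6% rose. The median difference was -1.12 over the 8 genes and 0.03 over all genes. Tyrp1 fell by 2.76 on the log2 scale (SE 0.57, limma adjusted p = 0.0115), 6.78-fold, and was lower in 8 of 9 mice. Dct fell by 2.29 (SE 0.49, adjusted p = 0.0131), 4.87-fold, also in 8 of 9. The exception was mouse 1815, whose papilloma arrays lay nearest the spindle tumours.

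Mlana fell by 1.67 (SE 0.33, limma adjusted p = 0.00989) and Sox10 by 1.02 (SE 0.20, adjusted p = 0.00962), each in 9 of 9 mice. The Mlana values ran from 4.54 over 4.90 to 5.19 in spindle carcinoma (10 mice) and from 4.70 over 6.77 to 7.79 in papilloma (13 mice), with overlap through mouse 1815 and, narrowly, mouse 1717 (5.18). Pmel fell by 1.12 (SE 0.22, adjusted p = 0.00985) and Tyr by 1.11 (SE 0.31, adjusted p = 0.0308). Slc45a2 differed by -0.51 (SE 0.19, adjusted p = 0.0748).

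These calls depended on which mice and arrays entered. Leaving out the carcinomas with RegCA in their titles left 5 mice and no called gene among the 8 or among all genes, with differences as large as before (Dct -2.73, adjusted p = 0.0838, and Tyrp1 -3.19, adjusted p = 0.0829). The Tyr call was lost in 6 of 9 leave-one-out fits. Without the papilloma arrays that stood apart, which left 8 mice, limma called 7 of the 8 genes lower and 1, Mitf, higher. Slc45a2 was added to the lower ones (-0.67, limma adjusted p = 0.0399). In that setting 2965 of all genes were lower and 4145 higher.

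Mitf did not share this fall. It was 0.59 higher in spindle carcinoma than in papilloma (SE 0.33, limma adjusted p = 0.222), higher in 7 of 9 mice and not past the threshold. Without mouse 1949, whose spindle carcinoma had the highest keratinocyte mean and a Mitf of 5.89, the difference was 0.87 (adjusted p = 0.0268). Without the papilloma arrays that stood apart it was 1.16 (adjusted p = 0.0263). Macrophage markers rose beside it in 2 of 8 cases (Cd68 by 0.70 and C1qa by 1.43) and none fell. Mast cell markers rose in 0 of 7, where 12.6% of all genes rose. The part of these cells was not tested.

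Melanosome genes fell in 5 of 13 cases and rose in 2, where 11.2% of all genes fell and 12.6% rose. Mreg (melanoregulin), which takes part in melanosome transfer, fell by 2.71 (limma adjusted p = 0.00903) and Rab38, a GTPase that brings the pigment enzymes to melanosomes, fell by 2.46 (adjusted p = 0.00833). Slc24a5, an ion exchanger needed for pigment, fell by 0.80 (adjusted p = 0.0233), Oca2, a melanosomal anion channel, by 0.37 (adjusted p = 0.0485) and Gpr143, a melanosomal receptor, by 0.27 (adjusted p = 0.0235). Cd63 rose by 0.59 (adjusted p = 0.0198) and Myo5a, a motor protein, by 0.32 (adjusted p = 0.0498). All 8 keratinocyte markers fell too, by 1.87 (Krt15) to 4.33 (Dsg3), and the part of keratinocyte content in the melanosome genes was not tested.

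Of 10 receptors and regulators, Pax3, a regulator of Mitf, fell by 0.83 (limma adjusted p = 0.016), Mc1r, the melanocortin receptor, by 0.52 (adjusted p = 0.0159) and Trpm1, a melanocyte channel gene, by 0.30 (adjusted p = 0.0388), whereas Met rose by 0.92 (adjusted p = 0.011). Of all genes, 11.2% fell and 12.6% rose in this comparison. Of the 6 ligands, 3 rose and 1 fell. Hgf, the ligand of Met, rose by 2.00 (adjusted p = 0.037), Fgf2 by 1.30 (adjusted p = 0.0209) and Kitl, the ligand of Kit, by 0.77 (adjusted p = 0.0261), and Edn1 fell by 0.73 (adjusted p = 0.0222). Of 9 Schwann cell markers, Erbb3, which keratinocytes also express, fell by 3.06 (adjusted p = 0.00837) and Gfra3 by 1.01 (adjusted p = 0.00833).

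**Figure D5:**
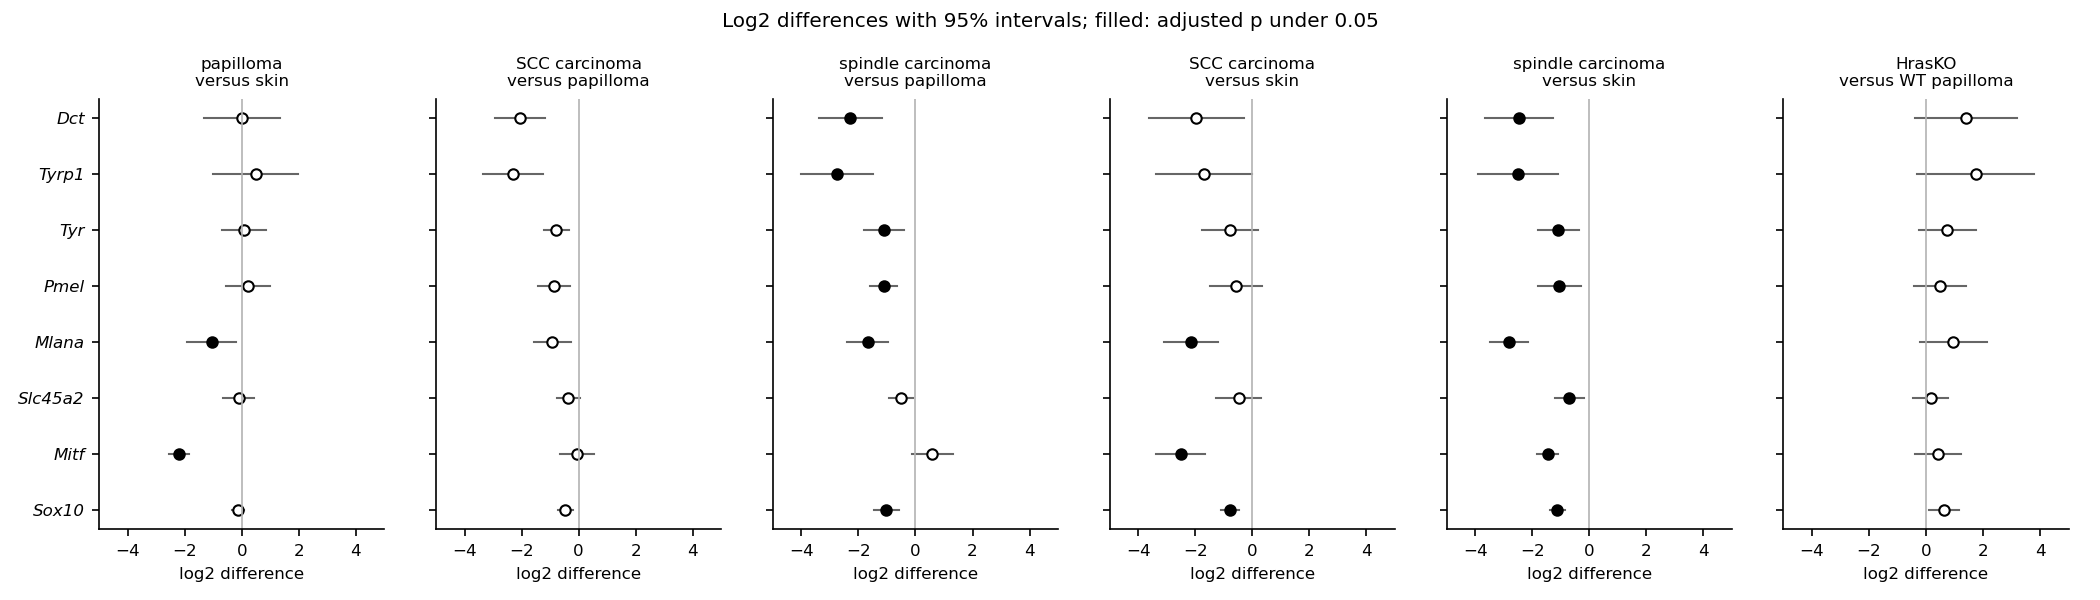
Log2 differences (horizontal axis) of the 8 genes in 6 comparisons, with lines for the 95% intervals from limma and filled circles for an adjusted p under 0.05. Against papilloma, Dct differs by -2.06 in SCC carcinoma and by -2.29 in spindle carcinoma, while in papilloma against skin Dct lies at 0.00 and Mitf at -2.20.

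Against skin, the carcinomas were compared in the same way, and these fits share their carcinoma samples with those against papilloma. In SCC carcinoma, within 8 mice, 3 of the 8 genes fell, where 15% of all genes fell, 15.6% rose and 30.6% did either. Mitf fell by 2.52 (SE 0.38, limma adjusted p = 0.00144), Mlana by 2.16 (SE 0.42, adjusted p = 0.00457) and Sox10 by 0.78 (SE 0.14, adjusted p = 0.00307). Mitf and Mlana were lower in 7 of 8 mice each and Sox10 in 8 of 8. The mouse with the exception was 1949, with Mitf at 8.50 in its SCC carcinomas and 8.44 in its skin, and Mlana at 6.43 and 6.03. Dct differed by -1.96 (SE 0.73, adjusted p = 0.0716) and passed without mouse 1949 (-2.45, adjusted p = 0.0283).

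In spindle carcinoma, within 10 mice, all 8 genes fell, where 19.2% of all genes fell and 27.5% rose. The median difference was -1.29 over the 8 genes and 0.08 over all genes. Mlana fell by 2.81 (SE 0.31, limma adjusted p = 3.88e-05), 7.03-fold, and was lower in 10 of 10 mice, as were Mitf (by 1.46, adjusted p = 4.45e-05) and Sox10 (by 1.12, adjusted p = 2.91e-05). Tyrp1 fell by 2.50 (adjusted p = 0.00713) and Dct fell by 2.45 (adjusted p = 0.00326), each in 9 of 10 mice, the exception being mouse 2022. Tyr fell by 1.08 (adjusted p = 0.019), Pmel by 1.04 (adjusted p = 0.0284) and Slc45a2 by 0.70 (adjusted p = 0.0291). Pmel and Slc45a2 each lost the call in 4 of 10 leave-one-out fits, and 6 to 8 of the 8 genes were called over these fits. Leaving out the RegCA carcinomas left 5 mice and ended the calls of Tyr (-1.09, adjusted p = 0.051) and Pmel (-1.11, adjusted p = 0.0609), with 6 of the 8 genes still called. Hair follicle genes fell in 16 of 17 cases, keratinocyte markers in 8 of 8 and Schwann cell markers in 5 of 9 (2 rose), and macrophage markers rose in 6 of 8 (1 fell). Their part was not tested.

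The carcinoma with the highest pigment genes in this group came from mouse 2022, with Dct at 6.00, Tyrp1 at 6.60 and a keratinocyte mean of 8.03. The spindle carcinoma of mouse 1537 had Dct at 5.27 and that of mouse 1509 had 4.99. In the other 7 mice Dct ran from 3.65 to 4.76.

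Between WT spindle carcinoma (6 mice) and SCC carcinoma (8 mice), limma with the mouse as a random block called none of the 8 genes, where it called 7.56% of all genes (3.47% higher and 4.09% lower in spindle carcinoma). Mlana and Mitf had an unadjusted p under 0.05, as did 2554 genes that were higher and 1905 that were lower of all 18772. Dct differed by 0.00 (95% interval -1.14 to 1.15) and Tyrp1 by -0.15 (-1.33 to 1.04), intervals wide enough to hold a 2-fold difference either way. Mlana differed by -0.64 (adjusted p = 0.122). Mitf was 1.04 higher in spindle carcinoma (95% interval 0.05 to 2.03, adjusted p = 0.187), and 1.65 higher without mouse 1949 (adjusted p = 0.000714).

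Metastases were compared with carcinomas of the same histology in the same mice. In SCC (8 mice), limma called none of the 8 genes and 4.55% of all genes (1.81% higher and 2.74% lower in metastasis), and Mitf alone had an unadjusted p under 0.05 (0.76 higher in metastasis, adjusted p = 0.107, higher in 7 of 8 mice). At that level 2199 of all genes were higher and 1890 lower. Dct differed by -0.40 (95% interval -1.07 to 0.26) and Tyrp1 by -0.63 (-1.43 to 0.16). In spindle tumours (7 mice), limma called none of the 8 genes and 0% of all genes, of which 1558 were higher and 937 lower at an unadjusted p under 0.05, and Dct alone of the 8 had an unadjusted p under 0.05 (-0.47, 95% interval -0.89 to -0.05). The other 7 differed by at most 0.57, the value for Mitf.

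Spindle and SCC metastases did not differ for any of the 8 genes past the threshold in a limma fit that called 0.0693% of all genes (0.0426% higher and 0.0266% lower in spindle metastasis), and none had an unadjusted p under 0.05, where 2183 of all genes were higher and 1195 lower at that level. In lymph node metastases alone, Mitf was 0.85 higher in spindle metastases (limma adjusted p = 0.0286), in a setting that called 1418 of all genes higher and 795 lower. Mlana reached 6.54 in 1 SCC metastasis mouse (1984) and 6.24 in another (1664), above the highest spindle metastasis mouse (5.19). Each of these 2 values came from a single lung array. That of mouse 1664 had a keratinocyte mean of 6.52, below the midpoint of 8.43 and so against its SCC label. For Dct the interval was narrow, with a difference of 0.06 (95% interval -0.29 to 0.41). The mouse values of Dct were at most 4.59 in SCC and 4.44 in spindle metastasis, below every array median. At such levels a signal cannot be told apart from background, so the interval does not show equal Dct expression.

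Likeness in pattern was measured by Pearson r to the mean of Dct, Tyrp1, Tyr, Pmel, Mlana and Slc45a2 over 64 mouse means of the 6 groups, which share mice and arrays. It is a description. Of the 8 genes, Dct (0.985), Tyrp1 (0.981), Tyr (0.954), Pmel (0.952), Slc45a2 (0.874) and Mlana (0.84) are part of that mean, whereas Sox10 had 0.65 and Mitf 0.267. Outside them, the 10 closest genes were Ptgds (0.938), Slc24a5 (0.916), Trpm1 (0.885), Fgf22 (0.869), Mt4 (0.856), Oca2 (0.843), Slc6a19 (0.834), Slc39a2 (0.832), Serpinb13 (0.831) and Capn12 (0.826). Ptgds encodes a prostaglandin D synthase. Slc24a5, Trpm1 and Oca2 are genes of pigment cells and were on the lists used here.

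Over the 13 papilloma mouse means alone, Slc24a5 (0.964) and Ptgds (0.962) were again the closest, followed by Liph (0.928), Nipal3 (0.907), Capns2 (0.895), Akr1c18 (0.895), Ang2 (0.891), Tlcd1 (0.889), Aftph (0.888) and Rassf10 (0.888). Sox10 had 0.314 and Mitf -0.042 there. Over these mouse means, which include the 7 arrays that stood apart, neither regulator followed the level of the pigment genes. The 4 of them nearest spindle tumours had Mitf of 8.20 to 8.75 with Dct of 3.62 to 4.50. The correlation was not computed without the 7 arrays. The value of -0.042 therefore does not show whether Mitf followed the pigment genes in the 20 others. Among the 20 arrays nearest papilloma, the highest Mitf, 8.31, lay in an array with Dct at 9.23. The lowest Mitf there, 5.72, lay in an array with Dct at 5.45.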

How the data were processed

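The authors deposited log2 intensities for 28204 probe sets on 112 arrays, computed with RMA per the submitters' processing notes; the RMA version and any batch correction were not given in the sources used here. Of the probe sets, 21141 had a single symbol, 1881 several and 5182 none, which gave 18772 genes; 1367 genes had several probe sets. The number of arrays, not a read depth, limits the precision.

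The members, gene lists and comparisons were chosen with earlier results of these data known. In each comparison, those of the 8 genes that passed the threshold are named, and not all of the others. Melanosome, receptor and ligand genes that passed are named for papilloma against skin and for spindle carcinoma against papilloma. In other comparisons, listed genes that passed are not named, so an unnamed gene may have passed. Likeness names the 10 highest correlations, leaving out predicted and small RNA genes. Some listed genes were not analysed here, which left 6 of 7 ligands, 9 of 13 Schwann cell markers and 17 of 20 hair follicle genes.

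Arrays of a mouse and tissue were averaged. Comparisons within mice used limma 3.58.1 in R 4.3.3 (lmFit, eBayes) with the mouse as a fixed block, since same-numbered samples come from the same animal. Spindle against SCC used the mouse as a random block, and in metastases also genotype as a covariate. Genotype comparisons used batch, as named in the labels, as a covariate. P-values were adjusted by Benjamini-Hochberg over all genes, threshold 0.05. The scripts were tested on simulated data. The correlation planned over all 15 skins is not printed, because the skins were clustered. Promoters of the 4 genes found in the RefSeq table were searched on both strands. Alternatives were no block, individual arrays, the mean over probe sets, a filter (above the overall median of 6.12 in at least 8 arrays), eBayes with trend, repeated quantile normalization, batch 1 alone and subsets of mice, sites and tumours.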

Additional observations from a re-analysis of the deposited data

Results flagged for a closer look

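In 56 sets of mouse values (8 genes, each in groups of 4 to 10 mice), 4 held a mouse whose gap to its nearest neighbour exceeded the 95% critical value of Dixon's test, which chance alone exceeds in about 1 of 20 sets. In SCC carcinoma, mouse 1949 had Tyrp1 at 7.33, with the next mouse at 5.54 (n = 8), and Tyr at 4.72, with the next at 3.71. Both values average 1 carcinoma with high pigment genes (Tyrp1 9.40) and 1 with low ones (Tyrp1 5.26). In spindle carcinoma, the same mouse had the lowest Mitf, 5.89, against 7.79 in the next of 10 mice, in the array with a keratinocyte mean of 11.12. In spindle metastasis, mouse 1537 had Slc45a2 at 4.66, with the next mouse at 4.43 (n = 7).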

How the results depend on the processing

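Counts of the 8 genes called moved by over 1.5 times in a few settings. In papilloma against skin, 1 was called after repeated quantile normalization and 1 in batch 1 alone, against 2. In SCC carcinoma against papilloma, 5 rather than 0 were called once the 7 deviating papilloma arrays were removed. In spindle carcinoma against papilloma, 0 were called without the RegCA carcinomas, against 6. Without the tumour arrays whose keratinocyte markers went against their label, a setting chosen after seeing the data, 1 was called in spindle against SCC carcinoma, against 0, and in lymph node metastases alone 1 was called in spindle against SCC metastasis, against 0. The causes were not tested. Leaving out each mouse in turn gave 1 to 2 calls for papilloma against skin, 0 to 1 for SCC carcinoma against papilloma (Mlana without mouse 1508, -1.19, limma adjusted p = 0.0484), 0 to 1 for spindle against SCC carcinoma, 3 to 4 for SCC carcinoma against skin, 5 to 6 for spindle carcinoma against papilloma and 6 to 8 for spindle carcinoma against skin.

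Without the mouse as a replicate block, 7 of the 8 genes were called in spindle carcinoma against papilloma, with Slc45a2 added (-0.51, limma adjusted p = 0.0472), Dct passed in SCC carcinoma against skin (-1.96, adjusted p = 0.0462) and Slc45a2 was lost in spindle carcinoma against skin (adjusted p = 0.0525). The block changed no other call of the 8 genes.

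All values that changed sign belonged to differences that did not pass the threshold. In papilloma against skin, Slc45a2 was 0.0327 without the arrays that stood apart. In SCC carcinoma against papilloma, Mitf was 0.0459 over individual arrays and 0.22 without those arrays. In spindle against SCC carcinoma, Dct was -0.0143 without the block, -0.0147 in batch 1 and -0.50 over individual arrays. In spindle metastasis against carcinoma, Pmel was 0.0162 and Slc45a2 0.0039 in lymph node alone, Mlana 0.0101 after quantile normalization, 0.0523 in batch 1, 0.034 without RegCA carcinomas and 0.0278 without the arrays against their label, and Sox10 0.0371 without RegCA carcinomas. In spindle against SCC metastasis, Dct was -0.0084 and Tyr -0.0058 in batch 1, and Sox10 -0.0035 without the block, -0.0475 over individual arrays, -0.0236 in batch 1 and -0.0246 in lymph node alone. Sox10 in HrasKO against WT skin was -0.003 after quantile normalization and -0.0192 in batch 1.

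Leaving out single mice also turned small differences. Papilloma against skin spanned -0.23 to 0.44 for Dct, -0.0727 to 0.31 for Tyr and -0.24 to 0.0921 for Slc45a2. SCC carcinoma against papilloma spanned -0.22 to 0.0888 for Mitf. Spindle against SCC carcinoma spanned -0.19 to 0.39 for Dct, -0.42 to 0.30 for Tyrp1, -0.0844 to 0.15 for Tyr and -0.16 to 0.0155 for Slc45a2. Spindle metastasis against carcinoma spanned -0.0633 to 0.0523 for Mlana, -0.11 to 0.0045 for Pmel and -0.10 to 0.0114 for Sox10. Spindle against SCC metastasis spanned -0.0228 to 0.13 for Dct, -0.14 to 0.0102 for Pmel and -0.0319 to 0.0385 for Sox10. Slc45a2 in HrasKO against WT papilloma spanned -0.0168 to 0.33. HrasKO against WT skin spanned -0.40 to 0.54 for Dct, -0.32 to 0.65 for Tyrp1, -0.47 to 0.17 for Tyr, -0.45 to 0.0905 for Pmel, -0.41 to 0.0479 for Slc45a2 and -0.0236 to 0.18 for Sox10. The filter on low values left Tyr and Slc45a2 untested. Spindle against SCC carcinoma could not be fitted without RegCA carcinomas, nor spindle against SCC metastasis without the arrays against their label.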

Other observations

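Sox10 followed another set of genes than the pigment enzymes among papillomas. Over the 27 papilloma arrays, which share mice, the genes most like Sox10 were Gjc3 (Pearson r = 0.908), Kcna2 (0.908), Foxd3 (0.906), Luzp2 (0.873), Kcna6 (0.865), Kcna1 (0.863), Slc35f1 (0.857) and Cdh19 (0.817), a list drawn up after seeing the data. Gjc3 and Cdh19 are genes of glial and Schwann cells and Foxd3 encodes a neural crest transcription factor. Erbb3, also on the Schwann cell list, did not follow Sox10 closely (r = 0.346, rank 936). The highest Sox10 values were 7.52 in a papilloma of the HrasKO mouse 1664, 7.18 and 7.01 in both papillomas of the HrasKO mouse 1407, 6.96 in a papilloma of the WT mouse 1508 and 6.66 in one of the WT mouse 2022. Their means over 9 Schwann cell markers were 8.03, 7.57, 8.32, 7.68 and 7.74, against a median of 7.03 over all papilloma arrays. The papilloma of mouse 1508 with Sox10 at 6.96 had Dct at 5.18, Tyrp1 at 5.89 and Tyr at 3.50.

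The genes most like Mitf over the same arrays were Sult1a1 (0.919), Ccser2 (0.917), Pik3r1 (0.916), Crebrf (0.911), Tacc1 (0.904), Klhl24 (0.904), Slc4a4 (0.903) and Cd47 (0.897), none of them on the lists used here. The 3 carcinomas labelled as mixed, which entered no comparison, had Dct of 3.74 to 4.17 and Mitf of 7.80 to 8.72.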
